A study of Mus musculus with 6 samples.

Results

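Beta cells, the insulin-secreting cells of the pancreatic islet, were compared between mice that lacked the transcription factor FoxO1 in these cells and wild-type mice, both 12 months old and never pregnant. The comparison rested on 2 of the 6 libraries of the study, 1 library per genotype. The FoxO1-deficient mice (IKO) carried a floxed Foxo1 gene that was excised by RIP-Cre, a recombinase driven by the rat insulin promoter. The controls were labelled wild type (WT), and the labels do not state whether they carried Cre or floxed alleles. All mice were female, per the design text, had a mixed 129J-C57BL/6 background and were fed standard chow, and beta cells were sorted by flow cytometry from purified islets. The other 4 libraries were WT and IKO at 3 months nulliparous, and WT (labelled NGT) and IKO (labelled DM) at 12 months after 3 pregnancies. The labels do not give the number of animals behind a library. The 3-month and the multiparous WT libraries served as further controls for the 12-month nulliparous IKO library, although the first differs from it in age and the second in parity as well as in genotype.

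FoxO1 is a forkhead transcription factor that insulin signalling holds in the cytoplasm and that moves to the nucleus when that signal is weak or the cell is under metabolic stress. In beta cells it is known for protecting cell identity. Mice without it in beta cells have been described as losing mature beta cells to dedifferentiation under stress such as ageing or repeated pregnancy. Aldh1a3, a retinaldehyde dehydrogenase, is a known marker of such cells, and Gc, the vitamin D-binding protein, is restricted to alpha cells among normal islet cells. Some RIP-Cre lines are also known to act in the brain.

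Values are FPKM (fragments scaled to transcript length and to the number of mapped fragments), and a ratio is the log2 of the ratio of FPKM + 1, which understates the change of low genes. A gene was compared where its symbol lay at 1 locus, neither library was listed at 0, and at least 1 of them had 5 FPKM, which gave 8349 of the 23087 genes at 1 locus. With 1 library per genotype, no difference below has a replicate behind it and none was tested. Depth is unknown, because the table gives no counts.

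Between the 12-month nulliparous libraries, 54 genes were at least 2-fold higher in IKO (0.647% of those compared) and 270 at least 2-fold lower (3.23%), 324 in all (3.88%). Of these, 321 did not reach 2-fold in the same direction against all 3 WT libraries. The 270 lower genes had a median log2 ratio of -1.25 against the 12-month nulliparous WT library, -0.03 against the 3-month WT library and -0.05 against the multiparous one. The 54 higher genes had medians of 1.11, 0.06 and 0.05 in the same order. Against the 3-month WT library the same IKO library had 11 genes 2-fold higher (0.134% of 8196) and 15 lower (0.183%). Against the multiparous WT library it had 17 higher (0.206% of 8240) and 23 lower (0.279%). These comparisons share the IKO library.

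**Figure D1:**
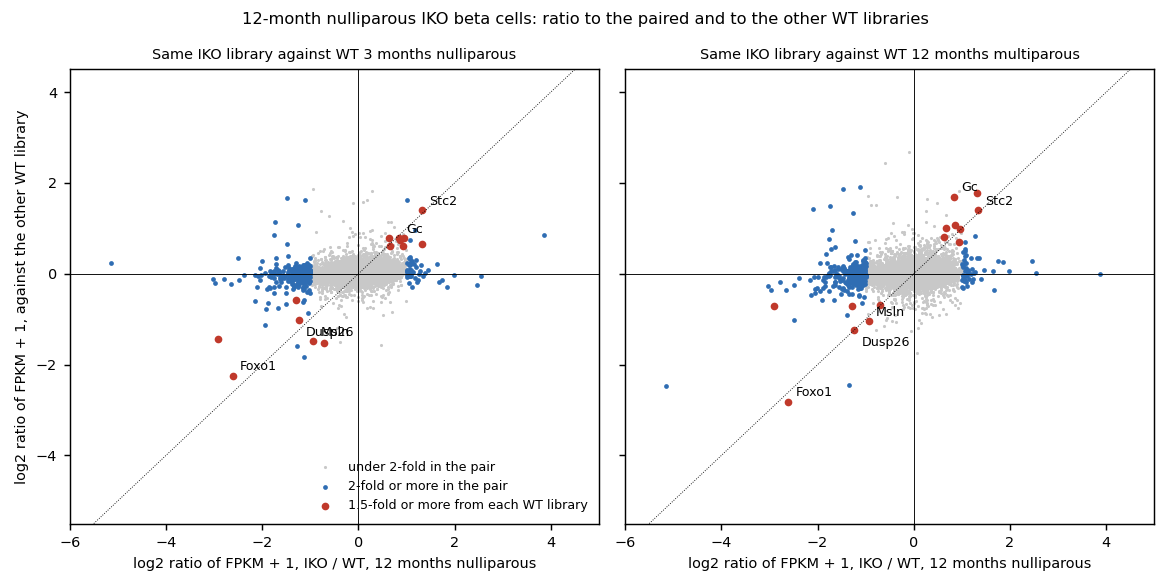
Each point is 1 of the genes compared. The x axis is the log2 ratio of FPKM + 1 between IKO and WT at 12 months nulliparous, the y axis the same IKO library against WT at 3 months (left) or multiparous WT (right), and the dotted line marks equal ratios. Blue points, 2-fold or more in the pair, mostly lie near the horizontal zero line. Red points, the 14 genes 1.5-fold or more from each WT library, lie in the quadrants of equal sign. Foxo1 and Stc2 lie near the dotted line in both panels.

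The 12-month nulliparous WT library held the highest or the lowest of the 6 values in 6591 of the 8349 genes (78.9%). Its correlation (r, log2 scale, over genes averaging 1 FPKM or more) with each of the other 5 libraries was 0.955 to 0.961, while those 5 gave 0.982 to 0.993 among themselves. Among the 270 lower genes it was the highest of the 6 in 266, and among the 54 higher genes it was the lowest in 50. The 270 lower genes had shorter transcripts (median 1283 bases, 240 with a length) and more GC (53.9%) than all genes compared (3278 bases and 49.8%), and the 54 higher genes had a median of 2445 bases and 48.9% GC. Over 7888 genes, the ratio against this WT library had a rank correlation of 0.411 with transcript length and -0.238 with GC. The same correlations were 0.159 and -0.0865 against the 3-month WT library and 0.0834 and 0.0797 against the multiparous one. Genes share their library and are not independent replicates.

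The genes with the lowest ratios show this pattern. Rpl39, a protein of the large ribosomal subunit, was at 166 FPKM in the IKO library, at 1359 in its WT pair, and at 179, 201, 184 and 181 in the 3-month WT, multiparous WT, 3-month IKO and multiparous IKO libraries. Rpl13, Rpl14, Rps24, Rps27a and Rpl36, further ribosomal protein genes among the 10 lowest ratios, were each highest in the same WT library. Over 82 cytosolic ribosomal protein genes the median ratio was -0.66 against that WT library, with 24 genes 2-fold lower and 2 higher. Over all 11111 genes averaging 1 FPKM or more, 2.54% were 2-fold lower and 0.621% higher. The ribosomal median was -0.06 against the 3-month and -0.13 against the multiparous WT library. Even so, the IKO library lay below each WT value in 39 of the 82 and above in 4, where all genes gave 14.5% and 24.7%. It was the lowest of the 6 libraries in 31 and the highest in 3, where all genes gave 10.7% and 19.9%. Chga, the chromogranin A gene of secretory granules, reached 10936 FPKM in that WT library, 4813 in its IKO pair and 3625 to 4619 elsewhere. At the upper end, Dapl1 had 33.8 FPKM in the IKO library and 5.29 in the WT library, against 26.7 to 40.4 in the other 4. S100a11, a calcium-binding protein gene, had 42.2 and 11.0 FPKM, against 35.3 to 52.0. For Rpl39, Rpl13, Dapl1 and S100a11 the IKO library lay among or next to the other 4 and its WT pair far outside them. Atp6v0c-ps2, a pseudogene with the lowest ratio of all (-5.15), had 2.28 FPKM in the IKO library and 115 in the WT library, but ranged from 1.80 to 45.1 in the other 4, and reads of such a copy can be divided differently between libraries.

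Acinar, delta, pancreatic polypeptide, alpha, endothelial and stellate cell markers also had their highest sums in the WT library of the pair, whereas macrophage, ductal and Schwann and neuronal markers did not. In bulk RNA, more cells of a type and more RNA per cell cannot be told apart. The 24 acinar markers of the table, mostly digestive enzymes, summed to 124 FPKM there, 61.0 in the IKO pair and 28.3 to 41.0 elsewhere. Of the 24, 20 were highest in that WT library, and 19 were higher in the IKO library than in each of the other 4. Ctrb1, chymotrypsinogen, had 29.4 FPKM in the WT library and 9.89 in the IKO library, against 1.72 to 5.09 elsewhere. Delta cell markers summed to 636 FPKM in WT, led by Sst, which encodes somatostatin (549), and to 199.6 in IKO (Sst at 124). They summed to 178 to 272 elsewhere. Markers of pancreatic polypeptide cells summed to 1691 and 572 FPKM, against 631 to 773 elsewhere, with Ppy at 990 and 239. Alpha cell markers summed to 1498 and 823 FPKM, against 585 to 1119 elsewhere, and Gcg, the glucagon gene, was at 913 and 348. Endothelial markers summed to 13.3 and 5.92 FPKM, against 5.17 to 5.44 elsewhere. Stellate and fibroblast markers summed to 5.02 and 2.04 FPKM, against 0.849 to 2.31 elsewhere. Macrophage markers summed to 22.0 FPKM in that WT library and 22.9 in IKO, against 21.6 to 28.7 elsewhere. Ductal markers summed to 906 and 744 FPKM, against 782 to 914, and Schwann and neuronal markers to 3.69 and 4.06 FPKM, against 3.55 to 4.60. The part of these cells in the results below was not tested. Insulin genes could not serve as a check of the sort, since Ins1, Ins2 and Iapp were listed at 0 in all 6 libraries. Other beta cell markers were abundant in both libraries of the pair, with Mafa at 102 FPKM in WT and 88.5 in IKO, Nkx6-1 at 106 and 95.8, and Ucn3 at 121 and 177.

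**Figure D2:**
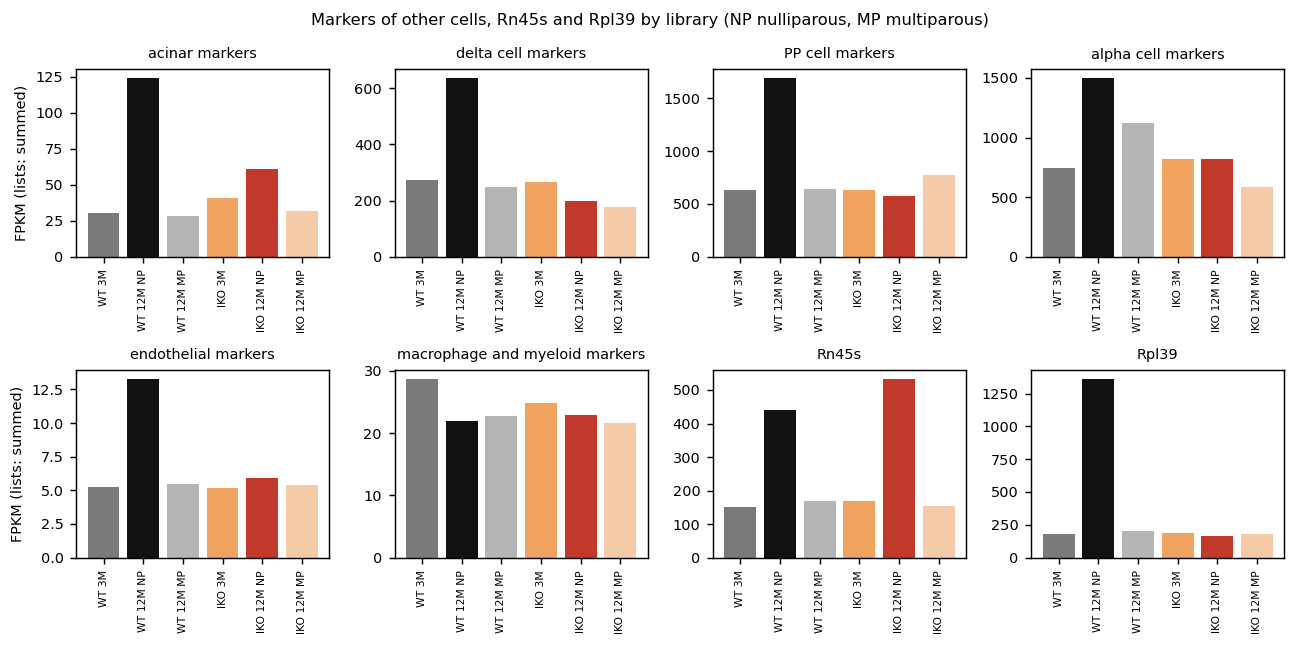
Bars give FPKM in each of the 6 libraries, summed over the table's members of a marker list or for 1 gene (Rn45s, Rpl39). Acinar, delta, PP, alpha and endothelial markers and Rpl39 are highest in the 12-month nulliparous WT library, macrophage markers are not, and Rn45s is high in both 12-month nulliparous libraries.

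The 12-month nulliparous WT and IKO libraries also shared some levels that set them apart from the other 4. Rn45s, the 45S ribosomal RNA precursor, had 440 FPKM in the WT library and 532 in the IKO library, against 150 to 170 elsewhere. Lars2, the mitochondrial leucyl-tRNA synthetase gene, was at 55.4 and 55.7 FPKM, against 24.6 to 31.3. Sfrp5, a secreted Wnt antagonist, was at 9.49 and 8.72 FPKM, against 0.505 to 3.85. Rn45s, Lars2 and Sfrp5 were chosen after their values were seen. In a comparison added after seeing the data, 9 genes were 2-fold higher in IKO than in both the 3-month and the multiparous WT library. They were Stc2, Rn45s, Sfrp5 and the digestive enzyme genes Cela1, Cela2a, Ctrb1, Prss2, Try4 and Try5, and of these only Stc2 was also 2-fold above the paired WT library.

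Few genes had an IKO value 1.5-fold or more beyond every WT library. At 2-fold against each of the 3 WT libraries there was 1 higher gene (0.012% of 8349), Stc2, and 2 lower ones (0.024%), Foxo1 and Dusp26. At 1.5-fold there were 8 higher (0.0958%) and 6 lower (0.0719%). The higher ones were Stc2, Rasgrf2, Gc, Dcx, Snord15b, Tmem179, Serpina7 and Gria2, and the lower ones Foxo1, Dusp26, Msln, Gm6644, Mid1 and Fmo1. They were chosen for these values, so their ratios are a description. The other IKO libraries played no part in the choice, but they are set below against the same WT libraries. Choosing genes with 1 IKO value beyond every WT value makes a lack of overlap between the genotypes easier to reach. The share of all genes without such overlap is not given here, so a lack of overlap is a description. Aldh1a3 did not reach 5 FPKM in the pair and is given beside them.

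Promoters of 4 of these genes are shown, from 250 bases before the first transcribed base to 50 after it. Mid1 and Serpina7 are shown because they hold a motif, and Gc and Stc2 for comparison, all chosen after the motifs were searched. Sequences are RefSeq's, build GRCm38.p6 (mm10), 5′ to 3′ on the gene's strand. Capitals mark the FoxO-type element GTAAACA or its reverse complement TGTTTAC, or the insulin response core TGTTTTG or its reverse complement CAAAACA.
Mid1 (chrX:169684949-169685248, plus strand): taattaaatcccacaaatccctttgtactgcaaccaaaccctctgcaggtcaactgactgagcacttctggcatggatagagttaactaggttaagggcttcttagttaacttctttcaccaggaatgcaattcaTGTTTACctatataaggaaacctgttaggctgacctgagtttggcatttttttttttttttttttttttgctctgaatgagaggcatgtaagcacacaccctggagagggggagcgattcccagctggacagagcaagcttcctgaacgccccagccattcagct
Gc (chr5:89457849-89458148, minus strand): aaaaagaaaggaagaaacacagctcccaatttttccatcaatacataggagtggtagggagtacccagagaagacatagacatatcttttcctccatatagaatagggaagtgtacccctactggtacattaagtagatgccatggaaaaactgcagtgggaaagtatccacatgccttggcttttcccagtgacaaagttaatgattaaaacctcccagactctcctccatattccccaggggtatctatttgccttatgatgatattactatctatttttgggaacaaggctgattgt
Stc2 (chr11:31370012-31370311, minus strand): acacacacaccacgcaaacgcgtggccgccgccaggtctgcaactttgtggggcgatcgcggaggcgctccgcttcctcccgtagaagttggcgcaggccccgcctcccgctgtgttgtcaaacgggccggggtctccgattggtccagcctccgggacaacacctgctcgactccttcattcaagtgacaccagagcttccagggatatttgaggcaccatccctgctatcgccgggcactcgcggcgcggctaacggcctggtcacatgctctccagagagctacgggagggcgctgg
Serpina7 (chrX:139085187-139085486, minus strand): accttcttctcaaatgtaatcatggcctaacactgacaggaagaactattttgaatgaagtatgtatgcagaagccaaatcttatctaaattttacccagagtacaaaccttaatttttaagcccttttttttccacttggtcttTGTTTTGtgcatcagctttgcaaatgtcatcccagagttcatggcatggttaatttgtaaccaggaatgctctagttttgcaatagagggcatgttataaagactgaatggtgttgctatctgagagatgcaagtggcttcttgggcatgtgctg
GTAAACA, on either strand, occurred in 3.65% of the 32851 listed promoters of this length and TGTTTTG in 6.28%. The Mid1 promoter shown held the first, 115 bases before the start, and the Serpina7 promoter shown held the second, 105 bases before it. The start of the Mid1 promoter shown lies 48 bases before that of the deposited table. Further listed Mid1 promoters, with starts 142912 and 194372 bases past the table's gene start, held neither motif. The listed promoters of Gc, Stc2, Foxo1, Dcx, Tmem179, Gria2 and Rasgrf2 held neither in this window, that of Rasgrf2 lying far upstream of the table's gene start. Of the 6 genes lower than all WT libraries at 1.5-fold, 2 had a listed promoter, Mid1 and Foxo1 itself, and of the 8 higher ones 7 had one. Among the 204 of the 270 lower genes with a promoter, 7 held GTAAACA (3.43%), against 189 of the 6353 compared genes with a promoter (2.97%). TGTTTTG occurred in 8 of the same 204 (3.92%), against 305 of the 6353 (4.80%). Among the 36 of the 54 higher genes with a promoter, 2 held GTAAACA (5.56%) and 0 held TGTTTTG.

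**Figure D3:**
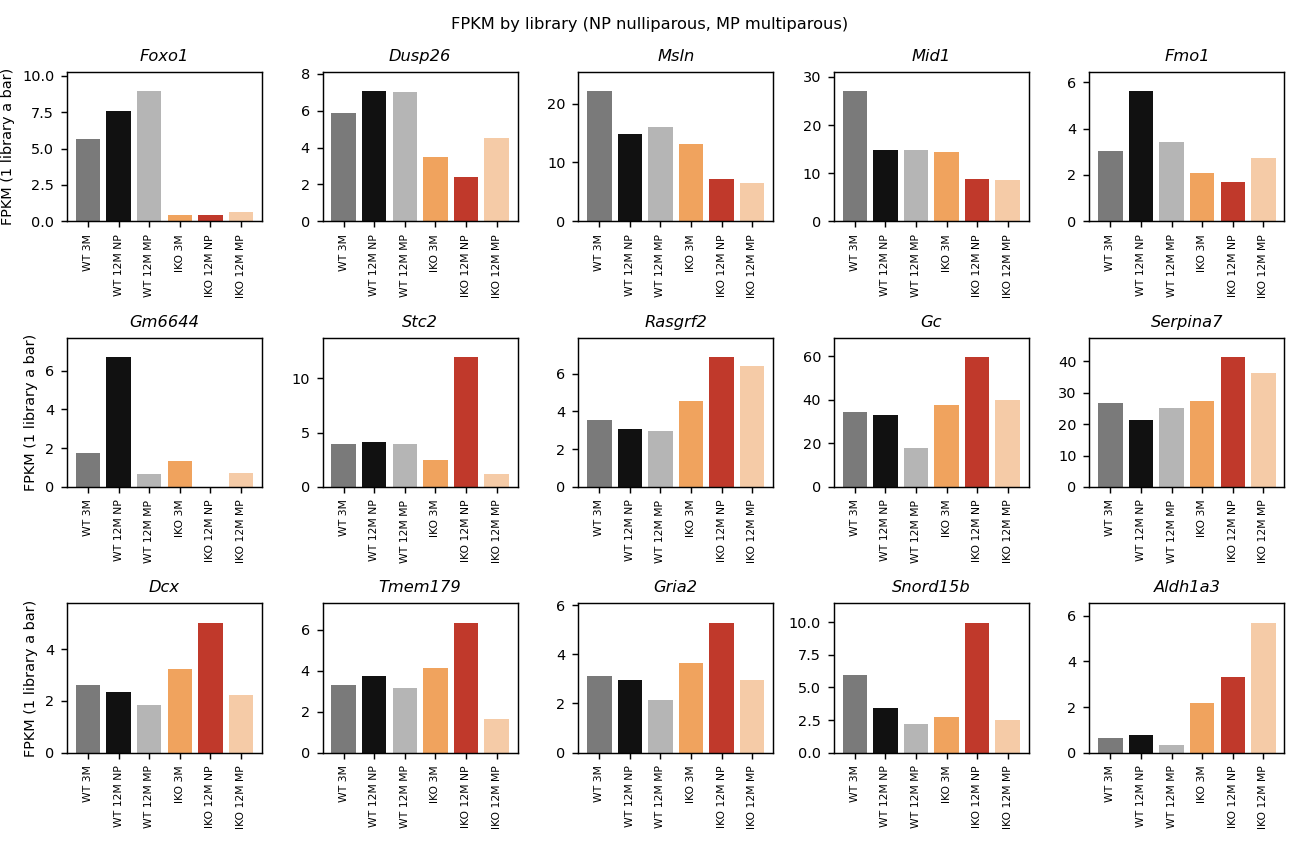
Bars give the FPKM of 15 genes in each library (grey and black, WT; orange and red, IKO; NP nulliparous, MP multiparous), each panel on its own axis from 0. Foxo1, Dusp26, Msln, Mid1 and Fmo1 are lower in all 3 IKO libraries than in any WT library, whereas Stc2 is high in the 12-month nulliparous IKO library alone.

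Foxo1 itself (chromosome 3, 52268337 to 52350109, mm10) had 7.62 FPKM in the WT library and 0.410 in the IKO library at 12 months nulliparous. It was at 5.67 and 8.93 in the 3-month and multiparous WT libraries and at 0.410 and 0.656 in the corresponding IKO libraries. The WT and IKO values did not overlap, and the log2 ratio in the pair was -2.61.

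Of the lower genes, Dusp26 (chromosome 8, 31089662 to 31097047), a dual-specificity phosphatase that acts on MAP kinases, was at 2.41 FPKM in the 12-month nulliparous IKO library. The WT libraries had 7.05 in the pair, 5.90 at 3 months and 7.03 after pregnancies, which gave log2 ratios of -1.24, -1.01 and -1.23. The other IKO libraries had 3.51 and 4.51 FPKM, so all 3 IKO values lay below all 3 WT values. With the length and GC trend removed, its smallest ratio in size was -0.99, just under 2-fold. Msln (chromosome 17, 25748613 to 25754327), which encodes the cell surface protein mesothelin, had 7.23 FPKM in the IKO library and 14.8 in the WT library. The other WT libraries had 22.1 and 16.0 and the other IKO libraries 13.2 and 6.57, again without overlap. Mid1 (chromosome X, 169685247 to 169990797), a microtubule-bound ubiquitin ligase known to target the catalytic subunit of protein phosphatase PP2A, had 8.72 FPKM in the IKO library and 14.9 in the WT library. It was at 27.0 and 14.8 in the other WT and at 14.3 and 8.53 in the other IKO libraries, and only the narrow step between 14.3 and 14.8 separated the genotypes. Rescaling without the 20 highest genes brought its smallest ratio to -0.55, under 1.5-fold. Fmo1 (chromosome 1, 162829561 to 162866548), a flavin-containing monooxygenase, had 1.69 FPKM in the IKO library and 5.61 in the WT library. The other WT libraries had 3.04 and 3.42 and the other IKO libraries 2.08 and 2.72, all lower than any WT value. Gm6644 (chromosome 6, 34303934 to 34317443) had 0.0206 FPKM in the IKO library and 6.69 in the WT library, but at 0.670 to 1.76 in the other 4 libraries, with IKO among WT values.

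Stc2 (chromosome 11, 31359441 to 31370061), a secreted stanniocalcin known to inhibit the protease PAPP-A and so the release of insulin-like growth factors, had the largest smallest ratio over the 3 WT libraries among the 8 higher genes. It was at 12.0 FPKM in the 12-month nulliparous IKO library and at 4.19 in its WT pair. The other WT libraries lay close to that at 3.94 and 3.93, and the other IKO libraries lay below them at 2.46 and 1.24. The IKO value was 2.86, 3.04 and 3.05 times the WT values of the pair, of 3 months and of the multiparous mice. Stc2 was also the 1 gene 2-fold above each of the other 5 libraries, and 0 genes were 2-fold below each of them. Its genotype difference thus had the opposite sign at the other stages, with log2 ratios of -0.51 at 3 months and -1.14 in the multiparous pair.

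Gc (chromosome 5, 89417511 to 89457898) had 59.7 FPKM in the IKO library and 32.9 in the WT library, the highest of the 6 libraries. The other WT libraries had 34.3 and 17.7 and the other IKO libraries 37.4 and 40.0. All IKO values exceeded all WT values, by a narrow step at 3 months. The log2 ratios of the 12-month nulliparous IKO library were 0.84, 0.78 and 1.70 against the WT libraries of the pair, of 3 months and of the multiparous mice. Gcg in the same library was at 348 FPKM, near the 340 of WT at 3 months and below the 655 of multiparous WT. Gc is itself 1 of the 8 measured genes of the alpha cell list, of which 3 lay above every WT value and 3 below (24.7% and 14.5% of all genes). The other two above were Ttr, the transthyretin gene, and Slc7a2, a cationic amino acid transporter gene, named after their values were seen. Ttr was at 176 FPKM in IKO, and at 147, 134 and 79.3 in the paired, 3-month and multiparous WT libraries. Slc7a2 was at 27.6 FPKM, against 21.7, 21.9 and 17.4. Both were highest of the 6 libraries in the 12-month nulliparous IKO library, as was Gc. Among the 3 below was Gpx3, a glutathione peroxidase gene also named after its values were seen. Gpx3 was at 23.5 FPKM in IKO, and at 61.2, 28.8 and 131.8 in the paired, 3-month and multiparous WT libraries. The part of alpha cells in the Gc values was not tested. Vdr, the vitamin D receptor gene and the other measured member of the 8 genes for vitamin D handling, had 40.2 FPKM in the IKO library and 28.0 in the WT library, with 23.6 to 31.6 elsewhere.

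Serpina7 (chromosome X, 139079250 to 139085236), the thyroxine-binding globulin gene, had 41.3 FPKM in the IKO library and 21.2 in the WT library. The other WT libraries had 26.7 and 25.1 and the other IKO libraries 27.2 and 36.3. Only the narrow step between 26.7 and 27.2, both at 3 months, separated the genotypes. Under median-ratio scaling the smallest Serpina7 ratio was 0.58, just under 1.5-fold. Aldh1a3 (chromosome 7, 66390893 to 66427477) had 3.31 FPKM in the IKO library and 0.776 in the WT library. The other WT libraries had 0.624 and 0.348 and the other IKO libraries 2.18 and 5.70, so no IKO value overlapped the WT values, and the 12-month nulliparous value lay between the other IKO values. Its log2 ratios were 1.28, 1.41 and 1.68 against the 3 WT libraries. Other genes of the dedifferentiation and progenitor list, which held 5 measured genes of 17, are given for comparison. Hes1, a Notch target, had 4.77 FPKM in the IKO library and 8.35 in the WT library, the lowest and the highest of the 6 libraries. Notch1 was at 4.68 and 3.12 FPKM, against 3.16 to 4.25 elsewhere. Neurog3, which starts the endocrine lineage in the embryo, had 0.415 FPKM in IKO and 0.349 in WT. Pou5f1 was listed at 0 in all 6 libraries, and Sox2, Sox9 and Nanog were at 0.0332 FPKM or less in both libraries of the pair. Of the 5, 1 was 2-fold higher and 0 lower in the pair (0.621% and 2.54% of the 11111 genes averaging 1 FPKM or more).

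The other genes 1.5-fold above all WT libraries are given next. Rasgrf2 (chromosome 13, 91880407 to 91988042), an exchange factor that activates Ras, had 6.87 FPKM in the IKO library and 3.07 in the WT library, with 3.53 and 2.98 in the other WT and 4.57 and 6.40 in the other IKO libraries, without overlap. Dcx (chromosome X, 143855842 to 143933219), the microtubule protein doublecortin of migrating neurons, was at 5.03 and 2.33 FPKM. The other WT libraries had 2.62 and 1.85 and the other IKO libraries 3.23 and 2.22, so the genotypes overlapped. Gria2 (chromosome 3, 80684936 to 80802791), an AMPA-type glutamate receptor subunit, was at 5.29 and 2.97 FPKM, with 3.13 and 2.14 in the other WT and 3.66 and 2.95 in the other IKO libraries. Tmem179 (chromosome 12, 112500184 to 112511160), a membrane protein gene, was at 6.34 and 3.76 FPKM, with 3.29 and 3.17 in the other WT and 4.11 and 1.65 in the other IKO libraries. Snord15b (chromosome 7, 99479563 to 99479707), a small nucleolar RNA, was at 9.97 and 3.42 FPKM and between 2.19 and 5.95 elsewhere. Such short RNAs are poorly captured by poly-A libraries. With the length and GC trend removed, Dcx (0.48) and Gria2 (0.27) were under 1.5-fold from at least 1 WT library.

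The FoxO target list held genes known to be bound or regulated by FoxO factors in other tissues or cells. Its medians were close to those of all genes against the paired and multiparous WT libraries, and higher against WT at 3 months. Of 40 genes, 33 averaged 1 FPKM or more, and 0 of them reached 2-fold in either direction in the pair. Their median log2 ratio was 0.10 against the paired WT library, 0.17 against WT at 3 months and 0.06 against multiparous WT, beside 0.07, 0.03 and 0.00 over all 11111 genes. In the IKO library 11 lay above each WT value and 2 below, where all genes gave 24.7% and 14.5%. The highest of the 6 libraries was this IKO library in 11 and the lowest in 0, where all genes gave 19.9% and 10.7%. Irs2, the insulin receptor substrate that FoxO1 is known to activate in liver, had 9.18 FPKM in the IKO library and 4.29 in the WT library, and at 5.96 to 7.41 elsewhere, the highest of the 6. Cdkn1b, the cell cycle inhibitor p27, was at 26.7 and 20.1 FPKM, against 23.4 to 26.1. Cdkn2b, the inhibitor p15, was at 3.58 and 5.65 FPKM, and 3.18 to 4.47 elsewhere, and all 3 IKO values (4.10 at 3 months) lay below every WT value. The paralogues Foxo3 (5.72 and 3.93 FPKM, 4.30 to 5.46 elsewhere) and Foxo4 (3.58 and 5.11, 3.49 to 4.54 elsewhere) differed in opposite directions. Foxo3, Foxo4 and, below, Gipr were named after their values were seen.

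Beta cell identity genes differed by less than 2-fold in the pair. None of the 36 measured genes reached 2-fold in either direction against the paired WT library. The median ratios were 0.11, -0.01 and 0.16 against the paired, the 3-month and the multiparous WT library. The IKO library lay above all WT values in 11 and below them in 2, beside 24.7% and 14.5% of all genes. Slc2a2, the beta cell glucose transporter GLUT2, was at 78.8 FPKM in IKO, at 59.1, 65.1 and 37.5 in the paired, 3-month and multiparous WT libraries, and at 63.1 and 51.3 in the other IKO libraries, so the 12-month nulliparous IKO value was the highest of the 6 and over 2-fold above multiparous WT (log2 ratio 1.05). Glp1r, the receptor of the incretin GLP-1, was highest there too, at 88.3 FPKM against 59.1 in WT and 73.0 to 83.3 elsewhere. Glis3, a transcription factor of beta cells, was at 6.37 against 3.54 FPKM and 4.96 to 5.69 elsewhere, and Prlr, the prolactin receptor, at 53.6 against 38.9 and 33.4 to 44.5 elsewhere. Gipr, the receptor of the incretin GIP, was the lowest of the 6 at 32.2 FPKM, against 52.3 in WT and 33.4 to 41.0 elsewhere. Npy, the neuropeptide Y gene, is not among these 36 but in the separate list of beta cell markers. Of that list's 22 measured genes, Npy was the 1 gene 2-fold lower in the pair, and 0 were 2-fold higher (2.54% and 0.621% of all genes). It had 14.5 FPKM in the IKO library and 48.3 in the WT library. It was at 25.2 and 22.1 in the other WT and at 31.3 and 8.25 in the other IKO libraries.

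Several genes of amino acid synthesis and import, targets of the stress factor ATF4, had their highest value in the 12-month nulliparous IKO library. Of the 20 genes of the list, 10 lay above every WT library and 0 below (24.7% and 14.5% of all genes), and the same number were the highest of all 6 libraries (19.9% of all genes) with 0 the lowest (10.7%). None reached 2-fold, and the median ratios were 0.19, 0.11 and 0.20 against the paired, 3-month and multiparous WT libraries. Chac1, a glutathione-degrading enzyme, was at 84.8 FPKM in IKO, 55.6 in WT and 55.5 to 66.2 elsewhere. Mthfd2, a mitochondrial folate enzyme, was at 124 and 78.2 FPKM, with 79.5 to 108 elsewhere. Psat1, of serine synthesis, was at 77.6 and 45.1 FPKM, with 47.0 to 72.1 elsewhere. Aldh18a1, of proline synthesis, was at 64.7 and 39.2 FPKM, with 48.1 to 60.5 elsewhere. These genes had negative IKO to WT log2 ratios in the 3-month and multiparous pairs. The ratios were -0.13 and -0.18 for Chac1, -0.09 and -0.29 for Mthfd2, -0.22 and -0.30 for Psat1, and -0.13 and -0.18 for Aldh18a1. Other members were lower in IKO than in the paired WT library, among them Phgdh (21.5 and 27.5 FPKM, 13.9 to 17.9 elsewhere) and Trib3 (66.1 and 84.2, 47.8 to 59.2 elsewhere). Atf4 mRNA itself was at 332 FPKM, among the 304 to 391 of the others. Ddit3, the stress factor CHOP, had 168 FPKM in the IKO library and 100.2 in the WT library, and was highest in multiparous WT at 170.0. Aldh1l2, a mitochondrial folate enzyme outside the list and chosen after its values were seen, was at 69.9 FPKM in IKO, 33.4 in WT and 35.5 to 56.5 elsewhere. Its log2 ratio was -0.29 in the 3-month pair and -0.66 in the multiparous pair.

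**Figure D4:**
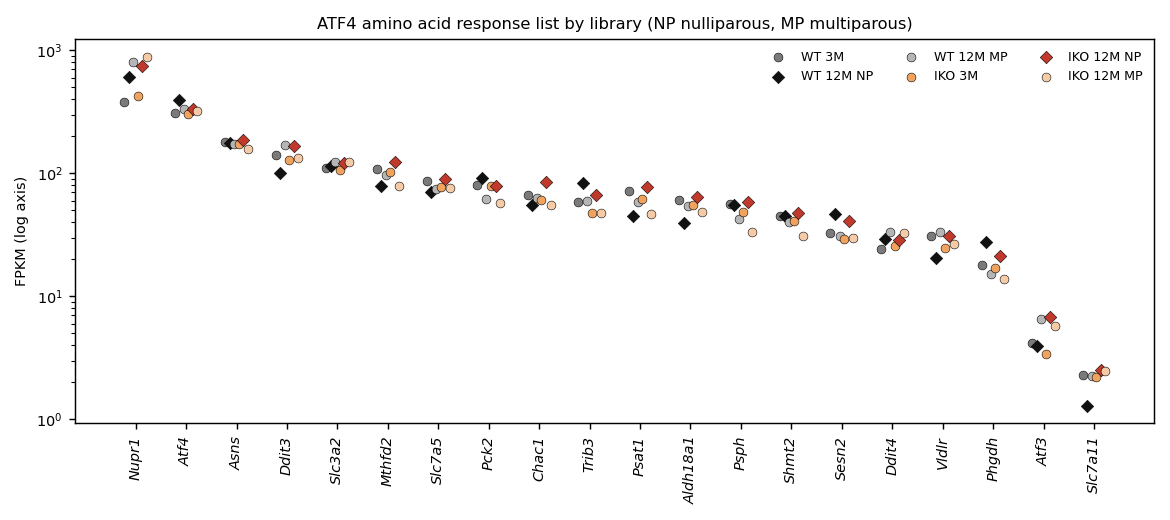
Points give the FPKM (log axis) of the 20 genes of the ATF4 list in the 6 libraries, with diamonds for the 12-month nulliparous pair. The red diamond, IKO, is the highest point for 10 of the genes, among them Chac1, Mthfd2, Psat1 and Aldh18a1, and Atf4 itself is not among them.

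Other lists are given next, and the medians of several, though not of the interferon list, moved with the choice of WT library. Interferon and antigen presentation genes, 24 measured, had medians of -0.17, -0.09 and -0.17, and 11 of them lay below every WT value and 1 above (14.5% and 24.7% of all genes). Psmb8, an immunoproteasome subunit, had 16.5 FPKM in the IKO library and 37.1 in the WT library, and at 20.1 to 23.9 elsewhere. H2-D1, a class I antigen-presenting molecule, was at 213 and 246 FPKM, with 254 to 313 elsewhere, the lowest of the 6. Ion channel genes, 28 measured, had medians of 0.24, 0.02 and 0.14, with 13 above every WT value and 0 below (24.7% and 14.5% of all genes). Kcnh2, a potassium channel, had 26.1 FPKM in the IKO library and 22.1 in the WT library, with 21.7 to 22.7 elsewhere, and Kcnma1, the BK channel, at 11.9 and 7.20, with 9.31 to 10.7 elsewhere. Respiratory chain genes, 70 measured, had a median of -0.28 against the paired WT library, with 13 genes 2-fold lower and 1 higher (2.54% and 0.621% of all genes). The median was 0.01 and -0.01 against the other WT libraries, with 18 of the 70 below every WT value and 5 above (14.5% and 24.7% of all genes). Insulin signalling genes, 24 measured, had a median of 0.39 against the paired WT library but 0.06 and 0.05 against the others. Of the 24, 13 lay above every WT value and 2 below (24.7% and 14.5% of all genes). The IKO library was the highest of the 6 in 12 and the lowest in 0 (19.9% and 10.7% of all genes). Glycolysis genes, 17 measured, were level against both nulliparous WT libraries (0.03 and 0.06) and lower against multiparous WT (-0.68). Crispld2 and Sv2b, high in both multiparous libraries, were at 0.784 and 3.61 FPKM in the nulliparous IKO library and at 0.533 and 3.21 in its WT pair.

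**Figure D5:**
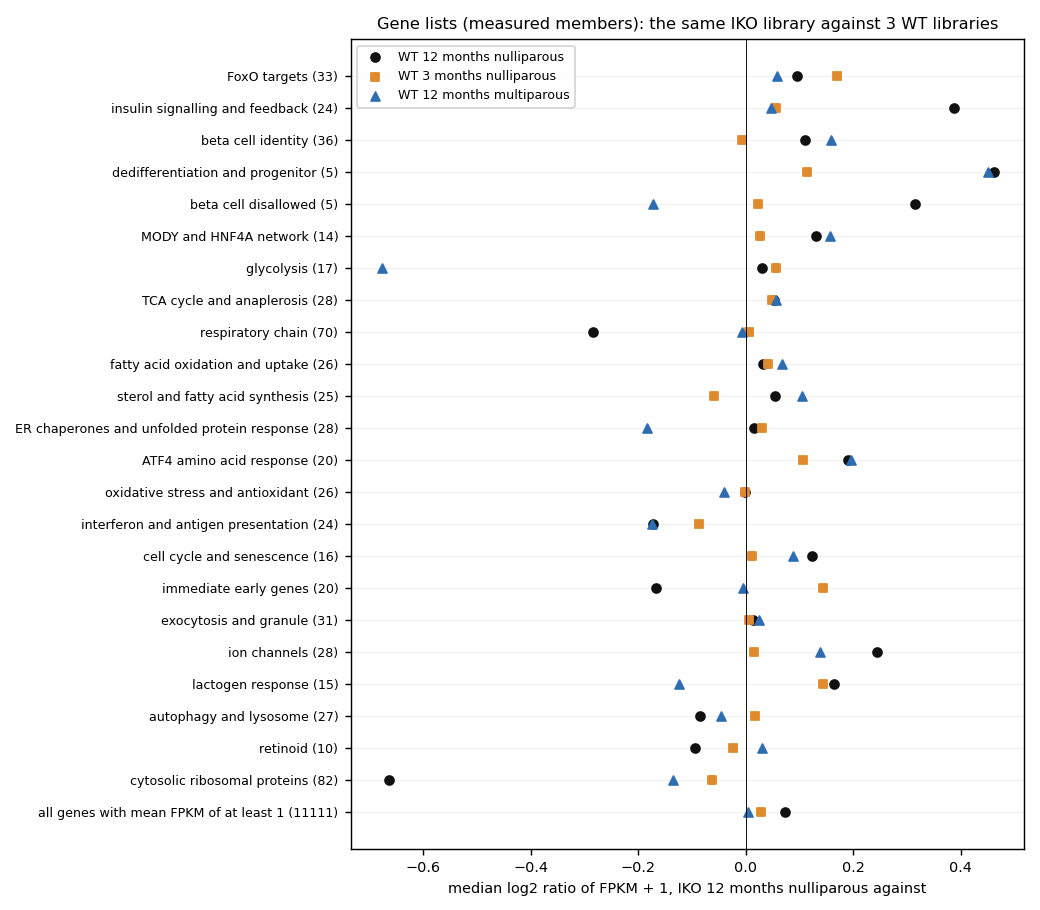
Points give the median log2 ratio of FPKM + 1 of each gene list (measured members in brackets) for the 12-month nulliparous IKO library against WT at 12 months nulliparous (circles), at 3 months (squares) and after pregnancies (triangles). Ribosomal protein (-0.66), respiratory chain (-0.28) and insulin signalling (0.39) genes lie farther from 0 against the paired WT library than against the other 2, and glycolysis genes (-0.68) against the multiparous one.

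Delta cell markers were lower in the IKO library than in every WT library in 3 of 5 measured genes and higher in 0, beside 14.5% and 24.7% of all genes. Rbp4, a retinol-binding protein gene of delta cells, had 7.45 FPKM in the IKO library and 16.4 in the WT library, with 14.3 and 11.0 in the other WT and 12.3 and 6.01 in the other IKO libraries. Sst was at 124 FPKM, against 549, 189 and 172 in the paired, 3-month and multiparous WT libraries and 187 and 99.7 in the other IKO libraries. Both older IKO libraries were below every WT library for Rbp4 and Sst. The summed delta markers were 636 FPKM in the paired WT library and 199.6 in IKO, and the part of delta cells in these differences was not tested.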

How the data were processed

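Per the labels' protocols, the sorted beta cells gave directional poly-A libraries, sequenced from both ends over 100 bases. Per the submitters' processing notes, the authors used TopHat, Cufflinks and Cuffdiff with build mm10, whose versions are not given in the sources used here. The authors deposited FPKM values, 1 column per library. FPKM depends on the gene models, on the splitting of reads among copies, and on the total, so that abundant genes can lower others. Of 23845 rows, 758 with symbols at several loci were left out, which left 23087 genes, and 23 symbols turned into dates were not named. The base 1 was added to starts, since 76.6% of the 11991 genes that share an end with RefSeq then share the start. Ratios used a pseudocount of 1 FPKM. List members needed a mean of 1 FPKM over the 6 libraries. Transcript length and GC are those of the longest GENCODE M21 transcript of a symbol, found for 94.5% of genes compared. The calculation (Python 3.11.15, pandas 2.3.3) was tested on simulated data. Named genes were a fixed set, all genes 1.5-fold beyond each WT library, the 10 highest and 10 lowest ratios, up to 4 genes of each list by their smallest ratio, and further list members and genes stated as chosen later. The members and lists were chosen with earlier results of these data known. No test was made, as each group had 1 library. Alternatives were other pseudocounts, scalings, minimum values, thresholds and WT comparators, and removal of a quadratic trend on length and GC.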

Additional observations from a re-analysis of the deposited data

Results flagged for a closer look

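For 4 genes named for the 12-month nulliparous pair, the IKO to WT ratio reached 2-fold in one direction there and 2-fold in the other at another stage. Each value rests on 1 library per group, and the difference between stages was not tested. Stc2 had a log2 ratio of 1.32 in the 12-month nulliparous pair and -1.14 in the multiparous pair. Atp6v0c-ps2 had -5.15, but 1.26 for the 3-month pair and 1.33 after pregnancies. Tgoln2 had 3.86, against -2.29 in the multiparous pair, and was at 1.84e-06 FPKM in the 12-month nulliparous WT library. Tmsb15l had -2.49, against 1.48 at 3 months. Atp6v0c-ps2 is a pseudogene, and for all 4 genes but Stc2 the 12-month nulliparous WT library held the highest or the lowest value of the 6.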

How the results depend on the processing

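No paired analysis was possible because the WT and IKO groups compared have 1 library each and so share fewer than 2 replicate numbers. A genotype comparison over the 3 stages was not made here. None of the 14 genes beyond all WT libraries at 1.5-fold changed sign under another scaling or with the length and GC trend removed, but list medians did. Another pseudocount or minimum could not change the sign of a gene's ratio, and a minimum of 20 FPKM left 2 of the 14. In the pair, 54 genes were 2-fold higher and 270 lower. The higher count was 96 with a pseudocount of 0.1, 10 with 5, 34 under median-ratio scaling, 25 with a minimum of 20 FPKM, and 620 at 1.5-fold. It was 11 against WT at 3 months, 17 against multiparous WT and 6 against the median of the 3 WT libraries. The lower count was 170 with a pseudocount of 5, 886 at 1.5-fold, and 15, 23 and 10 against those 3 comparators. Rescaling without the 20 highest genes gave 142 higher and 156 lower and moved the median of all genes to 0.21, and removing the length and GC trend gave 74 and 144. The 1 gene 2-fold above every WT library became 0 with a pseudocount of 5 or a minimum of 20 FPKM, and 2 with no minimum (Aldh1a3 joined Stc2) or with zeros kept. The 2 below became 4 with a pseudocount of 0.1 or zeros kept, 0 with a pseudocount of 5 or a minimum of 20 FPKM, and 1, Foxo1, with the trend removed. At 1.5-fold the 8 above became 14 and 2 with pseudocounts of 0.1 and 5, 5 under median-ratio scaling and 2 with a minimum of 20 FPKM. The 6 below became 10 and 2 with the pseudocounts and 0 with that minimum. Against only the 3-month and multiparous WT libraries, an alternative chosen after seeing the data, the 4 counts were 9, 4, 25 and 12. Against WT at 3 months the median changed sign, with a shift over 0.1, in 8 of 30 lists: acinar (-1.12 to 1.13), macrophage (0.54 to -0.27), alpha cell (-0.65 to 0.028), immediate early (-0.17 to 0.14), respiratory chain (-0.28 to 0.0054), autophagy (-0.09 to 0.018), sterol synthesis (0.05 to -0.060) and beta cell identity (0.11 to -0.0070). Against multiparous WT it did in 8: acinar (to 1.51), PP cell (-1.01 to 0.52), beta cell markers (-0.01 to 0.29), glycolysis (0.03 to -0.68), ER chaperones (0.02 to -0.18), disallowed genes (0.32 to -0.17), lactogen response (0.16 to -0.12) and retinoid (-0.09 to 0.029). Without the 20 highest genes it did in delta cell (-0.14 to 0.034), retinoid (to 0.048), autophagy (to 0.084), beta cell marker (to 0.16) and antioxidant (-0.0023 to 0.17) lists. With the trend removed it did in sterol synthesis (to -0.065) and antioxidant (to 0.19) lists, and with a mean of 5 FPKM in lactogen response (to -0.0052). The causes were not tested. List medians shifted by over 0.1 in 29 of 30 lists without the 20 highest genes, 17 against WT at 3 months and 0 under median-ratio scaling. Depth, unknown here, limits the low genes.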
